A study of Mus musculus with 35 samples.

Results

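The genes described here are 10 genes of histamine and dopamine signalling: Hdc, Hnmt, Hrh1, Hrh2, Hrh3, Th, Ddc, Slc18a2, Slc6a3 and Maob. They were chosen by name, and all 10 were found among the 49568 gene names of the count tables. The tables hold polyA RNA of the hypothalamus from male mice (strain B6/J) at Zeitgeber time 16, that is 16 h after lights-on, in 35 libraries. Of these, 10 came from control mice with free access to food and 10 from control mice after a fast of 16 h. PER2-S662D mice gave 5 libraries with free food and 5 after the same fast, and mice labelled Per2 ko gave 5 after it. The labels name no transgene promoter, Cre driver or origin for either Per2 allele, give no age, and list no fed knockout group. PER2 is a repressor protein of the circadian clock, and S662D puts an aspartate at a serine that is a phosphorylation site. The design allows the question of whether fasting and PER2 genotype go with changes in these 2 amine systems.

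Histamine in the brain is made by neurons of the tuberomammillary nucleus in the posterior hypothalamus, which fire during wakefulness. Histidine decarboxylase makes histamine, the vesicular transporter Slc18a2 loads it for release, and histamine N-methyltransferase and then monoamine oxidase B degrade it. Dopamine is made from tyrosine by tyrosine hydroxylase and aromatic amino acid decarboxylase, is loaded by the same vesicular transporter, and is taken back up by the dopamine transporter in midbrain dopamine neurons and, at lower levels, in some hypothalamic neurons.

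Total counts ranged from 17959586 to 37027342 per library, with the highest totals in the S662D groups. Per2 itself, read in CPM (counts relative to the scaled library total), was 25.9 to 32.6 in control mice with food and 26.1 to 33.1 after fasting, against 28.2 to 33.4 in the libraries labelled Per2 knockout. Its level was thus not lower under the knockout label (log2 fold change 0.06, adjusted p = 0.935 by edgeR's quasi-likelihood test), so these libraries are called labelled knockout below. In S662D mice Per2 was lower, at 16.4 to 22.7 CPM over both feeding states, by -0.59 fed (adjusted p = 1.2e-07) and -0.55 fasted (adjusted p = 6.8e-07) on the log2 scale. The counts sum over all exons of the gene, so they do not check for the loss of part of the transcript. Library numbers in the headers put controls 1 to 5, controls 6 to 10, the labelled knockout and the S662D mice in ranges of their own, so that genotype cannot be told apart from library range. Within each range of control and S662D libraries, the fed libraries come first and the fasted ones after them. Feeding state thus cannot be told apart from library order either. Of the S662D libraries, replicates 2, 3 and 4 of both feeding states carry an additional final digit whose meaning is not stated. S662D values with or without them are given where a call of the 10 genes depended on them. For the direction of the dopamine neuron genes they are given for some genes and comparisons only. Hypothalamus markers were present in every library, with 10 listed genes (among them Pmch, Hcrt, Avp and Oxt) summing to 529 to 759 CPM. Markers of neighbouring regions were present too. The 6 thalamus markers summed to 859 to 1160 CPM and the 6 striatum and accumbens markers to 106 to 199 CPM. The dissected block was recorded as 0 to -3 mm from front to back, 1.5 mm mediolaterally and 4 to 7 mm in depth. The share of each region in the tissue was not tested.

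The receptor Hrh3 had the highest level of the 10 genes per length of exon and the receptor Hrh2 the lowest. Over all 35 libraries, in CPM per kb of exon, Hrh3 stood at 37.4 ± 4.34 (SD) and Hrh2 at 2.05 ± 0.254. Hrh3 is the presynaptic autoreceptor and heteroreceptor for histamine, and its gene (chromosome 2, 180099465 to 180104488, minus strand, mm10) shares 11.1% of its exon bases with the overlapping gene Gm17180, so its count is uncertain to that extent. Below it came Maob at 23.3 ± 1.65, Th at 22.7 ± 6.76, Slc6a3 at 19.7 ± 8.43, Ddc at 14.6 ± 3.15, Slc18a2 at 11.1 ± 2.80 and Hnmt at 10.3 ± 1.04 CPM per kb. Each neighbour in that run, from Maob down to Hnmt, differed from the next by less than the sum of their SDs. The other histamine genes were lower, with Hrh1 at 4.22 ± 0.436 and Hdc at 3.21 ± 0.386 CPM per kb, each step being larger than the summed SDs. In bulk tissue, fewer cells of a type and less RNA per cell cannot be told apart, and this holds for every difference below.

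**Figure D1:**
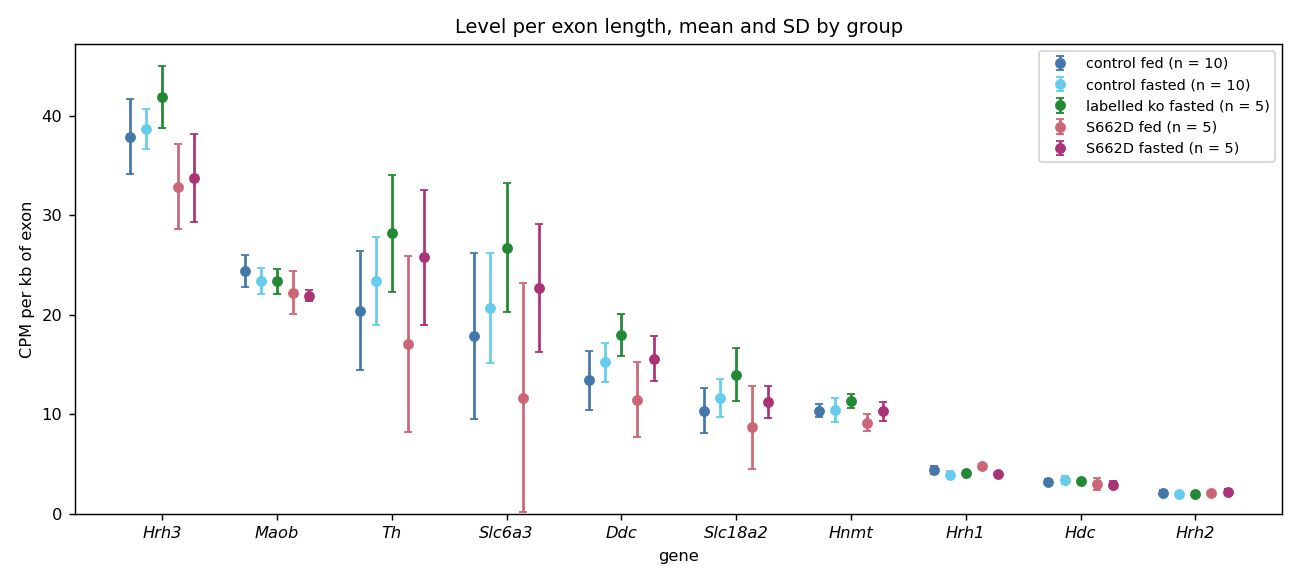
Level of each gene in CPM per kb of exon (vertical axis, linear from 0), with genes ordered by their mean over all libraries. Points are group means and bars are SDs over the libraries of a group (n = 10 or 5); Hrh3 lies highest in every group, and the bars of Th, Slc6a3, Ddc and Slc18a2 are wide.

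Fasting went with a small fall of Hrh1, the Gq-coupled receptor through which histamine excites many neurons (chromosome 6, 114397936 to 114483296, plus strand). Hrh1 was 17.8 to 23.3 CPM in fed controls (median 19.3, mean 19.6 ± 1.73) and 14.9 to 19.2 CPM in fasted controls (median 17.5, mean 17.4 ± 1.53). The groups overlapped, although 10 of 10 fasted controls lay below the fed median and 6 lay below the lowest fed library. The log2 fold change was -0.17 (SE 0.05, adjusted p = 0.0410 by edgeR's quasi-likelihood test), a ratio of 0.888. Hrh1 was the only gene of the 10 past an adjusted p of 0.05 in this comparison, which called 3.88% of all 18063 genes tested. The call sits near the threshold. It was lost with controls 1 to 5 alone (-0.20, adjusted p = 0.0799) and with controls 6 to 10 alone (-0.15, adjusted p = 0.239), and on leaving out any of 11 libraries (fed 4, 5, 7, 9 or 10, fasted 1, 2, 3, 5, 8 or 10), where the adjusted p was 0.0538 to 0.116.

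The same receptor fell on fasting in S662D mice. The 5 fed S662D libraries held 21.7, 21.8, 20.5, 21.4 and 22.5 CPM of Hrh1, and the 5 fasted ones held 18.0, 17.7, 17.7, 17.0 and 18.2 CPM. The groups did not overlap, as for 3.30% of all genes tested in that comparison. The log2 fold change was -0.28 (SE 0.07, adjusted p = 0.0118 by edgeR's quasi-likelihood test), a ratio of 0.822, and Hrh1 was again the only one of the 10 genes called, where 2.64% of all genes were. With only the libraries that carry the additional digit the value was -0.28 (adjusted p = 0.0770), and with only those without it -0.29 (adjusted p = 0.856, 2 libraries against 2). The difference between the responses of S662D and control mice was -0.11 (95% interval -0.28 to 0.06, adjusted p = 0.832) and so did not pass the test. For that difference no gene of the 10 was called by edgeR or DESeq2, none had an unadjusted p below 0.05, and 0 of all 18063 genes (0% called) passed the adjusted threshold, with 6.37% at an unadjusted p below 0.05. Labelled knockout mice, all fasted, had 18.1, 18.1, 18.9, 19.4 and 16.6 CPM of Hrh1, within the range of the fasted controls except for 1 library just above it.

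**Figure D2:**
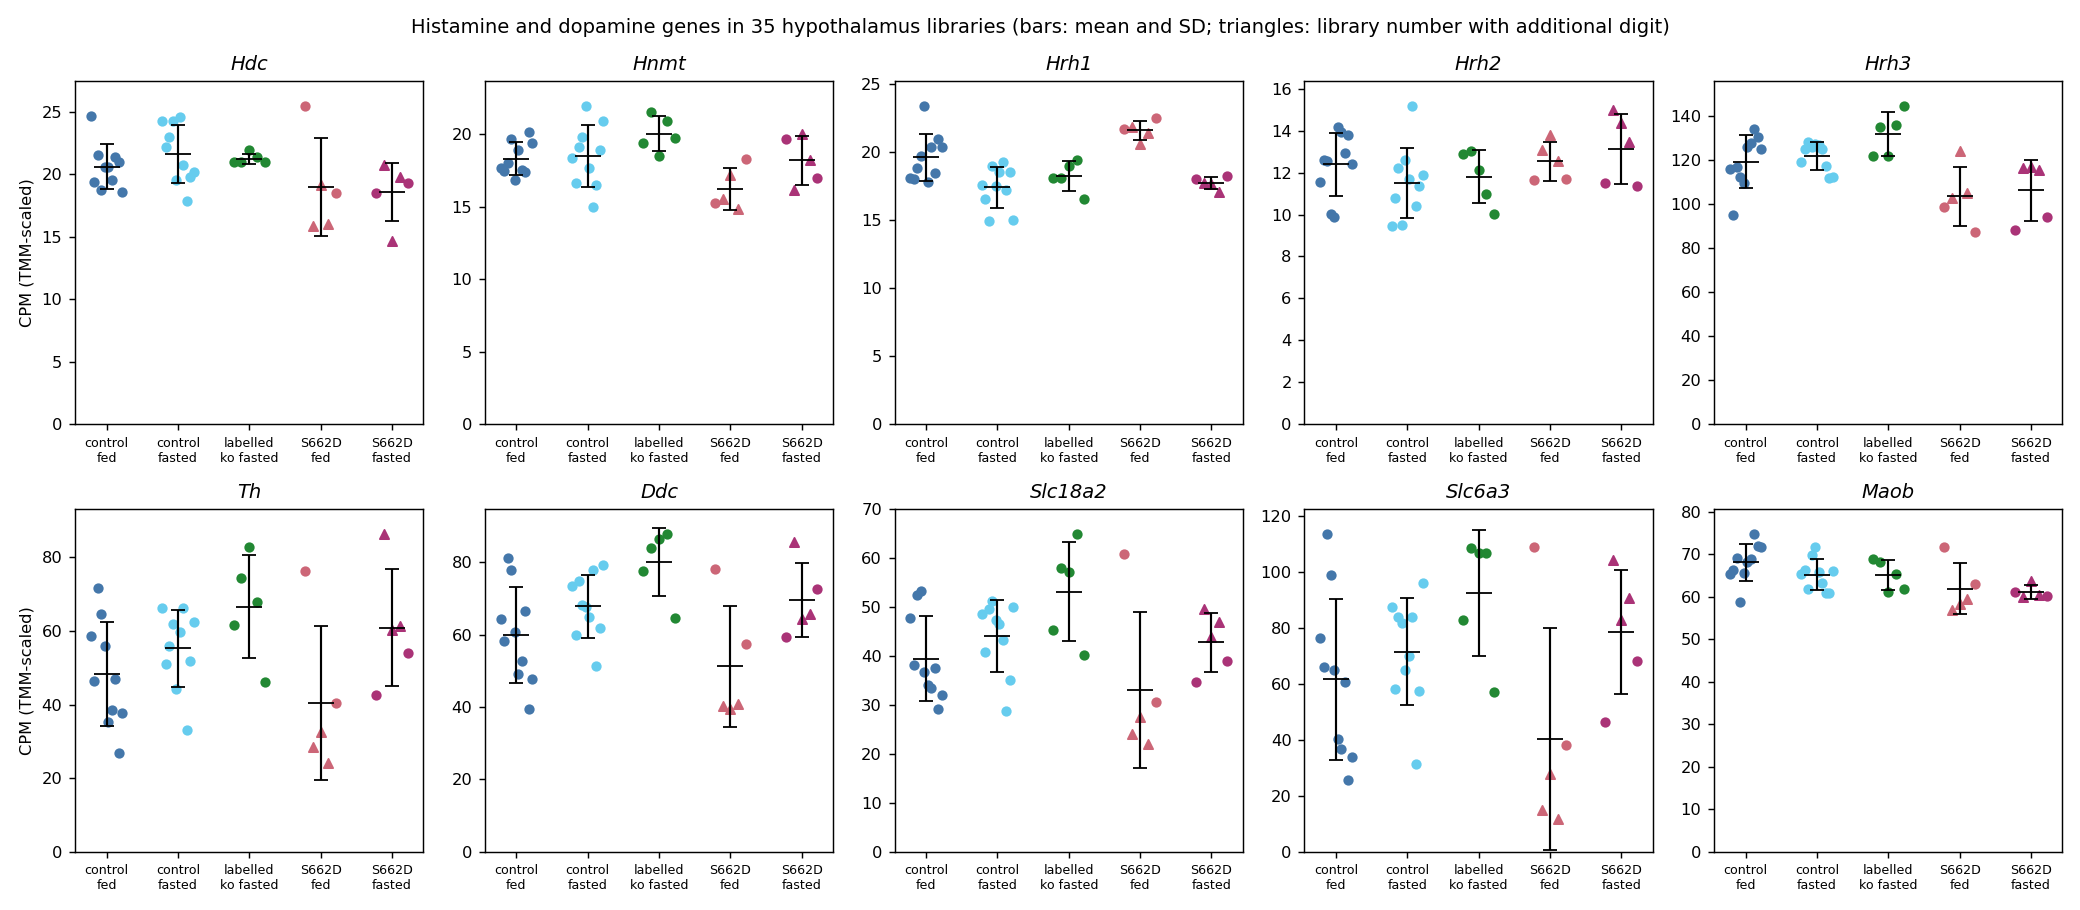
CPM of each gene in every library (vertical axes, linear from 0) by group; points are libraries, triangles mark S662D libraries with the additional digit, and bars show the group mean and SD. The 5 fed S662D libraries lie above the 5 fasted ones for Hrh1, while Slc6a3 ranges from 11.8 to 109 CPM within the fed S662D group.

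Hdc, the enzyme that makes histamine (chromosome 2, 126593667 to 126619299, minus strand), showed no called difference in any comparison. It was 18.6 to 24.7 CPM in fed controls (median 20.6) and 17.8 to 24.6 CPM in fasted controls (median 21.5), with a log2 fold change of 0.07 (95% interval -0.07 to 0.21, adjusted p = 0.776). Fed S662D libraries held 25.5, 15.9, 19.2, 16.0 and 18.5 CPM, and fasted ones 18.5, 20.8, 14.7, 19.8 and 19.3 CPM. Replicate 1 of the fed S662D group was the highest of all 35 libraries, whereas 3 of its 4 companions lay below every fed control. The labelled knockout libraries were close together at 21.0, 21.0, 21.9, 21.4 and 21.0 CPM. All 5 lay above every fasted S662D library, and 4.92% of all genes tested likewise had no overlap between these groups. The log2 difference of 0.19 was not called (adjusted p = 0.239 by edgeR's quasi-likelihood test). Against controls the S662D value was -0.13 fed (adjusted p = 0.407) and -0.22 fasted (adjusted p = 0.126). Leaving out replicate 1 of the fed S662D group took the fed value to -0.25 (adjusted p = 0.0366), in a fit that called 9.15% of all genes. With only the S662D libraries that carry the digit the fed value was -0.29 and was called (adjusted p = 0.0238), and with only the 2 without it the sign turned, at 0.09 (adjusted p = 1.00).

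The histamine-degrading genes Hnmt (chromosome 2, 24002910 to 24049394, minus strand) and Maob (chromosome X, 16709282 to 16817366, minus strand) showed no called difference with all libraries. Hnmt was 16.9 to 20.1 CPM in fed and 15.0 to 21.9 CPM in fasted controls, with a log2 fold change of 0.01 (95% interval -0.10 to 0.13). In S662D mice its fasting change was 0.17 (95% interval 0.01 to 0.33, adjusted p = 0.312), not called. The groups overlapped, with 5 of 5 fasted S662D libraries above the fed median. Fed S662D libraries held 15.2, 15.5, 17.2, 14.8 and 18.3 CPM of Hnmt, of which 3 lay below every fed control, and the difference was -0.18 (adjusted p = 0.123), or -0.23 (adjusted p = 0.0481) without replicate 5 of the fed S662D group. Maob, an outer mitochondrial membrane enzyme that astrocytes and histamine neurons express, was the steadiest of the 10 genes. Its highest library was 1.31 times its lowest over all 35. Its fasting change was -0.06 in controls (95% interval -0.14 to 0.02) and -0.02 in S662D mice (95% interval -0.13 to 0.10). In the fed state Maob was 58.8 to 74.8 CPM in controls and 71.8, 56.9, 58.4, 59.5 and 63.1 CPM in S662D mice. The log2 difference was -0.14 (adjusted p = 0.0881). Without replicate 1 of the fed S662D group, where 9.15% of all genes were called, it was -0.20 (adjusted p = 0.00924). It was -0.23 (adjusted p = 0.00289) with only the S662D libraries that carry the digit and -0.02 (adjusted p = 1.00) with only those without it. The 6 astrocyte markers summed to 2120 to 2420 CPM in fed controls and 2190 to 2540 CPM in fed S662D mice. Their part in the Maob values was not tested.

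Hrh3 was higher in the labelled knockout than in fasted S662D mice. The labelled knockout libraries held 122, 135, 122, 136 and 144 CPM, and the fasted S662D libraries 88.0, 116, 117, 115 and 94.1 CPM. As also for Hdc, no library of one group reached the other, which was so for 4.92% of all genes tested. The log2 difference was 0.31 (SE 0.08, adjusted p = 0.0154 by edgeR's quasi-likelihood test), and Hrh3 was the only one of the 10 genes called, where 7.34% of all genes were. Within the S662D groups the value followed the additional digit: the libraries without it held 98.5 and 87.0 CPM fed and 88.0 and 94.1 CPM fasted, and those with it held 103, 124 and 105 CPM fed and 116, 117 and 115 CPM fasted. Against the libraries with the digit the difference was 0.18 (adjusted p = 0.105), and against those without it 0.53 (adjusted p = 0.00127).

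Against controls, S662D mice had lower Hrh3 values that did not pass the test, at -0.20 in both feeding states (adjusted p = 0.0839 fed and 0.0937 fasted). With the digit as a term in the fit these became -0.39 in each (adjusted p = 0.00233 and 0.00335). Only S662D libraries carry the digit, so this fit sets the S662D level without the digit against control and is no separate adjustment. Without replicate 2 of the fed controls the fed value was -0.23 (adjusted p = 0.0377). With only the S662D libraries that carry the digit the values shrank to -0.11 fed (adjusted p = 0.295) and -0.07 fasted (adjusted p = 0.575), and with only those without it they were -0.36 (adjusted p = 0.112) and -0.42 (adjusted p = 0.0171). Against controls 1 to 5 alone the fed value was -0.08 (adjusted p = 0.561), and against controls 6 to 10 alone -0.31 (adjusted p = 0.0941). The 2 sets of control libraries differed as well in the fed state, with 94.8 to 117 CPM of Hrh3 in replicates 1 to 5 and 125 to 134 CPM in replicates 6 to 10. In fasted controls the same sets held 119 to 128 and 111 to 126 CPM. Fasting changed Hrh3 by 0.03 in controls (95% interval -0.09 to 0.15) and by 0.04 in S662D mice (95% interval -0.13 to 0.20).

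Hrh2, the Gs-coupled histamine receptor (chromosome 13, 54192129 to 54236180, plus strand), was 9.86 to 14.2 CPM in fed and 9.46 to 15.2 CPM in fasted controls. Fed S662D libraries held 11.6, 13.1, 13.8, 12.5 and 11.7 CPM, fasted ones 11.5, 15.0, 14.4, 13.5 and 11.4 CPM, and labelled knockout ones 12.9, 13.0, 12.1, 11.0 and 10.0 CPM. All groups overlapped, and no comparison called Hrh2. Here too the 6 S662D libraries with the digit lay above the 4 without it in both feeding states. In the fasted state S662D exceeded control by 0.19 (adjusted p = 0.230), or by 0.31 (adjusted p = 0.0322) with only the libraries that carry the digit.

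The 4 dopamine neuron genes were the most variable of the 10, and edgeR called none of them in any comparison with all libraries. Slc6a3, the dopamine transporter (chromosome 13, 73536747 to 73578672, plus strand), was 25.5 to 113 CPM in fed controls (median 62.8) and 31.4 to 96.0 CPM in fasted controls (median 75.9). Fed S662D libraries held 109, 15.1, 27.9, 11.8 and 38.2 CPM and fasted ones 46.4, 104, 82.9, 90.7 and 68.1 CPM. The fed group thus held the 2 lowest libraries of the series and, in replicate 1, the highest but 1. Labelled knockout libraries held 82.8, 108, 107, 107 and 57.2 CPM. Within groups, the SD of log2 CPM was 0.687 for Slc6a3, 0.417 for Th, 0.332 for Slc18a2 and 0.278 for Ddc, against a median of 0.116 over 12068 genes with at least 5 CPM. That places the 4 genes between the 97.7th and 99.8th percentile of those genes, with Maob at the 25.4th.

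Th, the rate-limiting enzyme of catecholamine synthesis (chromosome 7, 142892752 to 142931128, minus strand), followed the same order of libraries in both S662D groups. Fed S662D libraries held 76.2, 28.5, 32.4, 24.0 and 40.5 CPM of Th and fasted ones 42.6, 86.3, 60.2, 61.4 and 54.1 CPM, against 26.9 to 71.7 CPM in fed controls and 33.1 to 66.1 CPM in fasted controls. The groups overlapped, with 5 of 5 fasted S662D libraries above the fed median. Ddc, which makes dopamine from L-DOPA and serotonin from 5-hydroxytryptophan (chromosome 11, 11814101 to 11898144, minus strand), was 78.1, 40.2, 39.5, 40.9 and 57.3 CPM in fed and 59.2, 85.7, 64.4, 65.8 and 72.7 CPM in fasted S662D mice. Slc18a2 (chromosome 19, 59260878 to 59296012, plus strand) was 60.9, 24.0, 27.6, 21.9 and 30.5 CPM in fed and 34.6, 49.5, 43.9, 46.9 and 39.0 CPM in fasted S662D mice. For each of these genes replicate 1 was the highest library of the fed group.

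The fasting change of these genes in S662D mice turned on that 1 library. With all libraries it was 0.98 (SE 0.43, adjusted p = 0.274) for Slc6a3, 0.61 (adjusted p = 0.266) for Th, 0.45 (adjusted p = 0.207) for Ddc and 0.39 (adjusted p = 0.423) for Slc18a2. Without replicate 1 of the fed S662D group all 4 passed the test, at 1.79 (adjusted p = 0.00704), 0.97 (adjusted p = 0.0219), 0.65 (adjusted p = 0.0224) and 0.72 (adjusted p = 0.0196). That fit called 3.1% of all genes, and leaving out the highest fed library raises such a change in itself. Among libraries with the digit the values were 2.39, 1.30, 0.84 and 0.94, and among the 4 without it -0.36, -0.27, -0.03 and -0.31. In control mice none of the 4 fasting changes was called, at 0.21 (SE 0.30) for Slc6a3, 0.20 (SE 0.19) for Th, 0.18 (SE 0.12) for Ddc and 0.16 (SE 0.15) for Slc18a2. The values differed between the sets of controls. In controls 1 to 5 alone the sign turned, with Slc6a3 at -0.16 and Th at -0.09, while in controls 6 to 10 alone Slc6a3 was at 0.77 and Th at 0.56, none of them called. The difference between the responses of the genotypes was 0.77 for Slc6a3, with a 95% interval from -0.30 to 1.84 (adjusted p = 0.823). It was 2.17 (adjusted p = 0.0899) with only the S662D libraries that carry the digit and -0.57 (adjusted p = 1.00) with only those without it, and 1.14 against controls 1 to 5 and 0.21 against controls 6 to 10.

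**Figure D3:**
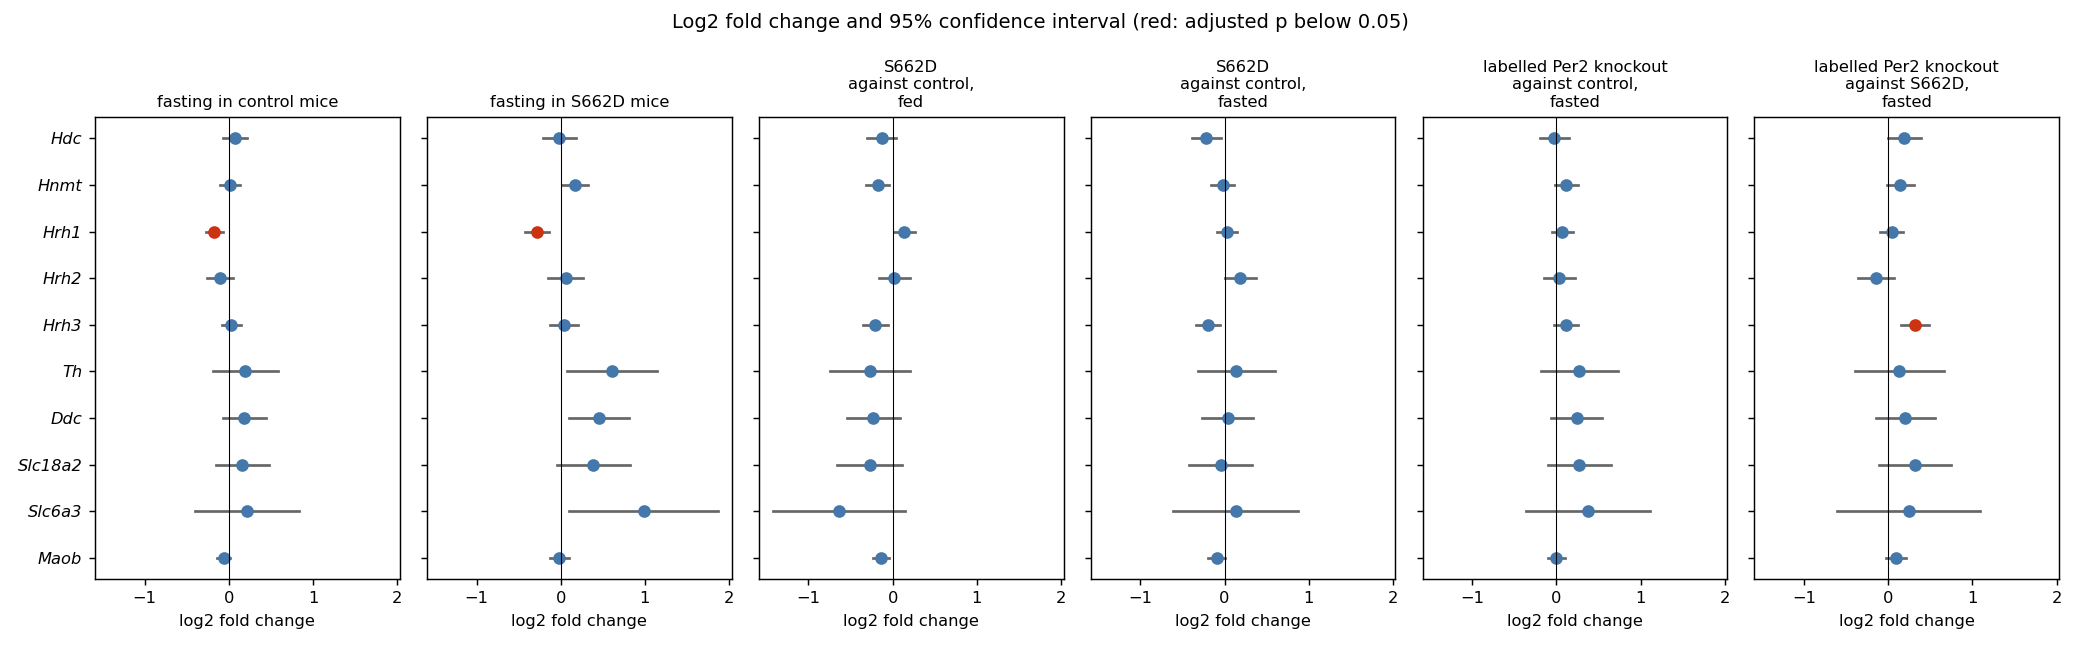
Log2 fold change of each gene (horizontal axis, points) with its 95% confidence interval (lines) in 6 comparisons; red points have an adjusted p below 0.05. Hrh1 is red in both fasting comparisons and Hrh3 in labelled knockout against S662D, and the intervals of Th, Ddc, Slc18a2 and Slc6a3 are the widest.

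Between genotypes, no dopamine neuron gene passed the test in the fed state with all libraries, and the direction turned with the S662D libraries used. With all of them the differences from fed controls were -0.64 for Slc6a3 (SE 0.39, adjusted p = 0.359), -0.27 for Th, -0.23 for Ddc and -0.27 for Slc18a2. No gene of the 10 was called by edgeR or DESeq2 in that comparison, where 4.69% of all genes were, and 4 of the 10 (Hnmt, Hrh1, Hrh3 and Maob) had an unadjusted p below 0.05, as did 21.0% of all genes. Without replicate 1 of the fed S662D group, Slc6a3 stood at -1.45 (adjusted p = 0.0125) and Slc18a2 at -0.61 (adjusted p = 0.0174). That fit called 9.15% of all genes. With only the 3 fed S662D libraries that carry the digit all 4 genes were called lower, Slc6a3 at -1.80 (adjusted p = 0.00244), Th at -0.78 (adjusted p = 0.0260), Slc18a2 at -0.69 (adjusted p = 0.00888) and Ddc at -0.57 (adjusted p = 0.0151), in a fit that called 16.9% of all genes. With only the 2 without it all 4 lay above control, at 0.25, 0.27, 0.21 and 0.18 in that order, and none was called. Against controls 6 to 10 alone Slc6a3 was at -0.00074, and against controls 1 to 5 alone at -1.08 (adjusted p = 0.108). Fasted S662D mice differed from fasted controls by 0.13 (95% interval -0.61 to 0.87) for Slc6a3 and 0.14 (95% interval -0.32 to 0.60) for Th. The Slc6a3 value was 0.38 with only the libraries that carry the digit and -0.31 with only those without it, neither called. Over the alternatives Th ran from -0.19 to 0.33, Ddc from -0.07 to 0.23 and Slc18a2 from -0.26 to 0.13. In that comparison 0 of the 10 genes were called by either tool and 3 (Hdc, Hrh2 and Hrh3) had an unadjusted p below 0.05, beside 5.57% of all genes called and 20.8% with an unadjusted p below 0.05.

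No gene of the 10 passed the test between labelled knockout and fasted control mice. The dopamine gene values of the labelled knockout were above control, at 0.37 for Slc6a3 (95% interval -0.36 to 1.11), 0.27 for Th, 0.24 for Ddc and 0.27 for Slc18a2, with adjusted p-values of 0.859 to 0.927. By edgeR and by DESeq2 0 of the 10 were called, where edgeR called 0.0277% of all genes, and 0 had an unadjusted p below 0.05, against 6.07% of all genes. Against fasted S662D mice the labelled knockout stood at 0.24 for Slc6a3 and 0.13 for Th, neither called. Over the alternatives these values ran from -0.26 to 0.69 and from -0.06 to 0.46, while Ddc and Slc18a2 stayed positive.

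The 2 sets of control libraries also differed in the dopamine neuron genes. In fed controls, Slc6a3 was 64.9 to 113 CPM in replicates 1 to 5 and 25.5 to 60.7 CPM in replicates 6 to 10, with no overlap. In fasted controls the sets overlapped, at 58.0 to 87.4 CPM (mean 75.2) and 31.4 to 96.0 CPM (mean 67.7), and Th averaged 55.8 and 54.6 CPM. Over both feeding states replicates 6 to 10 differed from 1 to 5 by -0.61 (SE 0.22) for Slc6a3, -0.35 for Th, -0.34 for Slc18a2, -0.23 for Ddc and 0.20 for Hrh2, and 5 of the 10 genes had an unadjusted p below 0.05 (9.23% of all genes tested there). None of the 10 was called by edgeR, where 0.181% of 17655 genes were, and DESeq2 called Slc18a2 (adjusted p = 0.0279).

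The 4 dopamine neuron genes varied together from library to library within groups. After the group mean was subtracted from log2 CPM, Pearson's r over 35 libraries was 0.953 for Th and Slc6a3 (Spearman's rho 0.928), 0.943 for Slc6a3 and Slc18a2 (rho 0.920), 0.921 for Ddc and Slc6a3 (rho 0.904) and 0.920 for Th and Ddc (rho 0.866). Th and Slc18a2 reached 0.899 (rho 0.869), and Ddc and Slc18a2 0.877 (rho 0.842). In a permutation test within groups each of these had p = 1e-05, the smallest that 100000 permutations can give, and 7.5e-05 after Benjamini-Hochberg adjustment over the 45 pairs, for r and for rho alike. Without the 2 libraries farthest from the median, r for these pairs stayed between 0.841 and 0.933. The permutations kept neither the 2 control sets nor the digit subsets apart. Differences between those thus enter r and p, here and for the pairs below. Th and Slc6a3 correlated at 0.844 in controls 1 to 5, 0.954 in controls 6 to 10 and 0.962 in S662D libraries (n = 10 each). Over all pairs of the 4 genes r ran from 0.674 (Th and Slc18a2) to 0.955 in controls 1 to 5. It ran from 0.826 to 0.954 in controls 6 to 10 and from 0.88 to 0.971 in S662D libraries.

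Hdc joined this pattern more loosely. It correlated with Slc18a2, the transporter its neurons also use, at 0.619 (rho 0.519, adjusted permutation p = 0.0103 and 0.0120), with Slc6a3 at 0.589 (rho 0.470, 0.0146 and 0.0442) and with Th at 0.583 (rho 0.497, 0.0114 and 0.0204). Without the 2 farthest libraries these became 0.547, 0.520 and 0.515. For Hdc and Slc6a3 the value was 0.244 in controls 1 to 5, 0.497 in controls 6 to 10 and 0.772 in S662D libraries. These 9 pairs were the only ones of 45 with an adjusted p for r below 0.05. Hrh2 and Hrh3 correlated at 0.413 (adjusted permutation p = 0.0601; rho 0.540, 0.0120), with 0.894 in the S662D libraries, where the digit splits both genes, and 0.00826 in controls 1 to 5. Hrh1 and Hnmt had no pair past the threshold, and Maob reached at most 0.331, with Hdc. Maob differed between sets of libraries: its r with the 4 dopamine neuron genes was 0.751 to 0.844 in the S662D libraries, 0.512 to 0.671 in controls 6 to 10 and -0.264 to -0.175 in controls 1 to 5.

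**Figure D4:**
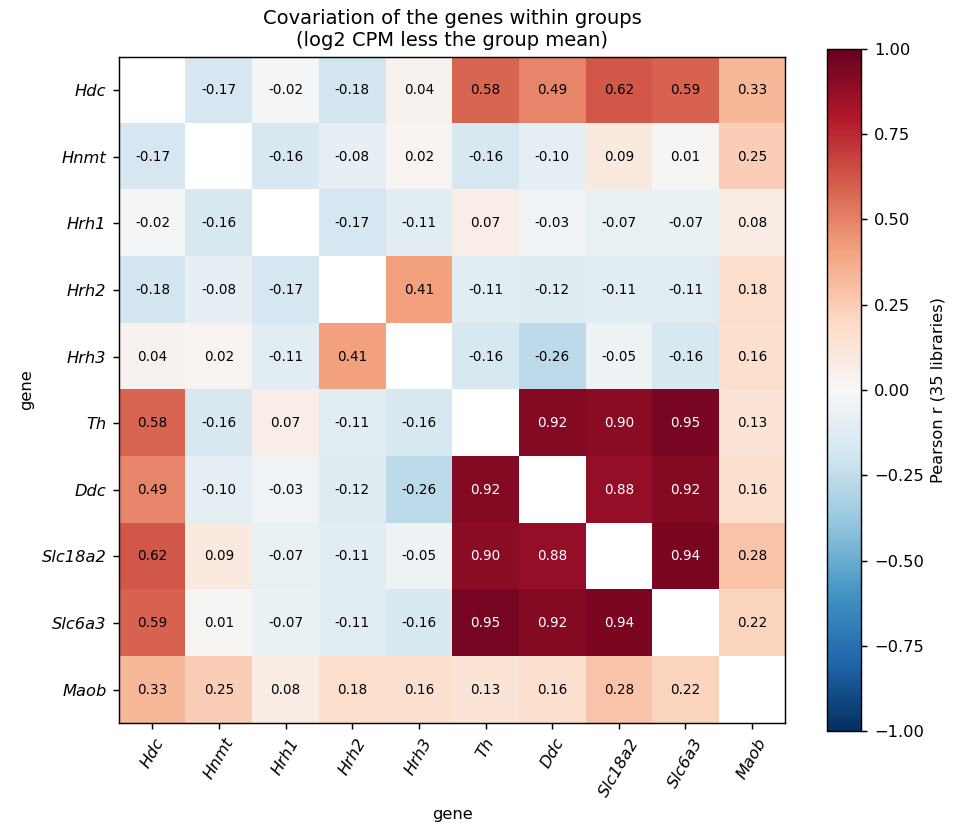
Pearson's r between each pair of genes over 35 libraries, from log2 CPM with the group mean subtracted (colour scale from -1 to 1, value in each cell). Th, Ddc, Slc18a2 and Slc6a3 form a block between 0.877 and 0.953, and Hdc stands at 0.486 to 0.619 with them.

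The genes most like Slc6a3 in this sense were Chrna6 (r = 0.957), En1 (0.953), Aldh1a1 (0.914), Slc10a4 (0.876) and Cnpy1 (0.775), ranked over the 15469 genes that averaged 1 CPM or more. Chrna6 encodes a nicotinic receptor subunit, En1 a homeodomain protein of the midbrain and Aldh1a1 a retinaldehyde dehydrogenase, all expressed in midbrain dopamine neurons. In fed S662D mice En1 was 4.81, 0.837, 1.60, 0.573 and 1.83 CPM and Chrna6 was 14.1, 3.45, 3.59, 2.65 and 7.47 CPM, replicate 1 again standing above the other libraries. Fasted S662D libraries held 2.03, 5.49, 4.55, 4.53 and 2.67 CPM of En1. Over the fixed list of 8 midbrain dopamine neuron markers (Pitx3, En1, Foxa1, Aldh1a1, Nr4a2, Chrna6, Ntsr1 and Sox6), r with Slc6a3 ran from -0.496 (Sox6) to 0.957, with a median of 0.736. Their summed level was 153 to 256 CPM in fed controls, 171 to 261 in fasted controls, 233 to 263 in the labelled knockout, 141 to 213 in fed S662D and 182 to 241 in fasted S662D mice, and none of the 8 was at 0 in all libraries. On fasting in S662D mice 7 of the 8 had a positive log2 fold change (median 0.32, against 0.00 over all genes) and 0 were called. The part of the midbrain markers in the dopamine gene values was not tested.

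The genes most like Hdc were Hcrt (r = 0.748), Rab27a (0.699), Pitx3 (0.661), Gm16286 (0.655) and Stx1a (0.635). Hcrt encodes orexin, the wake-promoting peptide of the lateral hypothalamus. It was 107, 55.1, 86.9, 64.5 and 83.3 CPM in fed S662D mice, the same order of libraries as for Hdc. Its r with Hdc was 0.629 in controls 1 to 5, 0.788 in controls 6 to 10 and 0.816 in S662D libraries. Mast cells also make histamine, and 7 of 8 mast cell markers (all but Kit) had a median of 10 or fewer counts over all libraries, the protease Tpsab1 never exceeding 1 count. All 5 markers of serotonin and noradrenaline neurons likewise had medians of 10 or fewer counts.

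**Figure D5:**
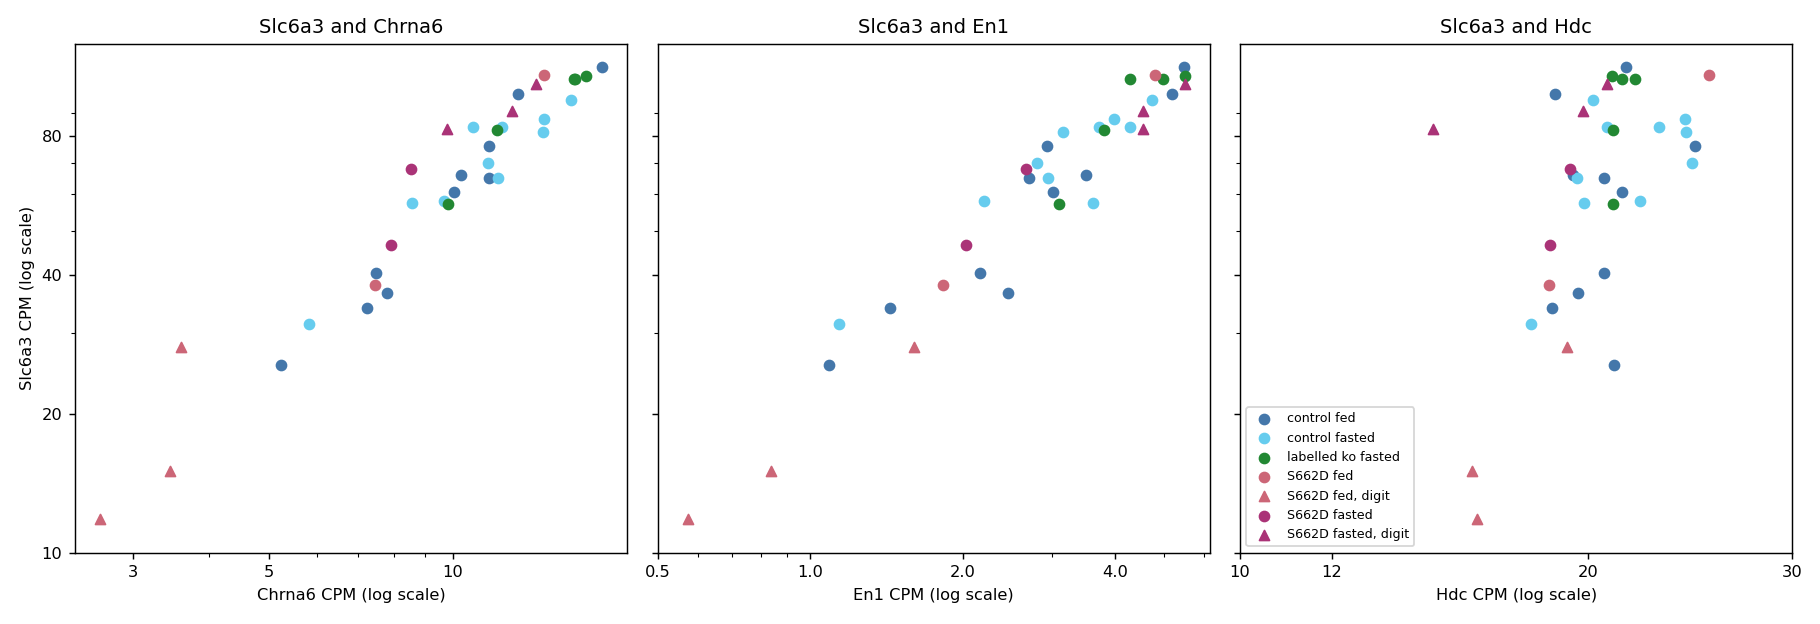
Slc6a3 (vertical, CPM, log scale) against Chrna6, En1 and Hdc (horizontal, CPM, log scales) in 35 libraries, coloured by group, with triangles for S662D libraries that carry the additional digit. Slc6a3 runs along 1 line with Chrna6 and En1 (r within groups 0.957 and 0.953) and more loosely with Hdc (0.589), and the 3 fed S662D libraries with the digit are among the 4 lowest for Slc6a3.

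Since the dopamine neuron genes varied together, their promoters were searched for 6 motifs on both strands, in RefSeq windows from 250 bases before to 50 after the start (build GRCm38.p6). Windows matched 9 of the 10 genes by symbol, all but Maob. The full cAMP response element TGACGTCA was in 2 of the 9, Th (first base at -45 from the start) and Slc18a2 (-4), or 22.2%, and in 2.03% of all 27025 genes with a window. Its 5-base part TGACG, which those matches contain, was in the same 2 genes and in 20.8% of windows. The E-box CACGTG, bound by CLOCK and BMAL1, was in Slc6a3 alone (at -197, and in 8.09% of all genes with a window). The NR4A element AAAGGTCA, the site of the dopamine neuron factor Nr4a2 and its relatives, was in Ddc on the reverse strand (at -73, and in 1.7% of all genes with a window). There it includes the ROR and REV-ERB site AGGTCA, which was also in Hrh1 (18.1% of all genes with a window). The glucocorticoid response element was in none of the 9 (0.537% of all genes with a window). The stretches that hold the matches of the 4 dopamine neuron genes follow, each 5′ to 3′ on the gene's strand with the match in capitals: Th at chr7:142899996-142900100 (minus strand), Slc18a2 at chr19:59260863-59260892 (plus), Slc6a3 at chr13:73536497-73536615 (plus) and Ddc at chr11:11898150-11898277 (minus), where the capitals are the reverse complement of the element.
Th: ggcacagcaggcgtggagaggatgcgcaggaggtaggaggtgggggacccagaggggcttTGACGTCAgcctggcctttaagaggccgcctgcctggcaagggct
Slc18a2: agcgctgtccgTGACGTCAgagccggactg
Slc6a3: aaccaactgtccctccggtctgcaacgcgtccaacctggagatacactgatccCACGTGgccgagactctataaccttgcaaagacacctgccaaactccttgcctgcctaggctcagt
Ddc: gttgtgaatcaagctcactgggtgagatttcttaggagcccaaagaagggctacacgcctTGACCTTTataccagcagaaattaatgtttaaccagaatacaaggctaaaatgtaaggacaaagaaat
No match was common to all 4 genes, and these matches are letters in a window and not measured binding.

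The other genes of the pathways were described from fixed lists, in comparisons that called 0% to 7.34% of all genes. Of 17 further dopamine genes (receptors Drd1 to Drd5, transcription factors such as Nr4a2 and Pitx3, and others), 15 could be tested and 0 were called in any comparison by edgeR, which among so few genes is near the share over all genes. Their median log2 fold change on fasting in controls was 0.07, against 0.00 over all genes. The receptor Drd2 averaged 22.9 ± 3.07 CPM over the 35 libraries, Drd1 4.81 ± 1.13 and Drd3 0.678 ± 0.262. Among 7 genes for the cofactors of these enzymes (tetrahydrobiopterin for Th, pyridoxal phosphate for Ddc and Hdc), 0 were likewise called in any comparison. Gch1, the entry enzyme of tetrahydrobiopterin synthesis, had r = 0.800 with Th and 0.692 with Slc6a3, and Prlr, the prolactin receptor, ran against Slc6a3 at -0.717. Drd1, Drd2, Drd3, Gch1 and Prlr were singled out after their values were seen.

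Of 6 further histamine genes, 4 could be tested, since Hrh4 (at most 2 counts in a library) and Aoc1 (at most 11) were too low. Those 2 are named outside the rule for named genes, after their values were seen. Maoa, the monoamine oxidase that also degrades noradrenaline and serotonin, was the only one called. It fell by 0.17 in fasted S662D mice against fasted controls (SE 0.05, adjusted p = 0.0275 by edgeR's quasi-likelihood test) and was 0.20 higher in the labelled knockout than in fasted S662D mice (SE 0.05, adjusted p = 0.0191). The histamine neuron marker list held 1 called gene on fasting, Itm2a, which fell by 0.30 in controls (adjusted p = 1.6e-04) and by 0.28 in S662D mice (adjusted p = 0.0280). Of the 6 genes of that list, Prph had r = 0.605 with Hdc and the other 5 lay between -0.166 (Wif1) and 0.169 (Lmx1a). The Maoa and Itm2a calls were not repeated under the alternatives. Their dependence on the additional digit, the set of controls or single libraries was thus not tested. In fasted S662D against control, 5.57% of all genes were called with every library. The share was 0.112% without the S662D libraries that carry the digit and 17.1% with only those.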

How the data were processed

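The authors deposited raw counts of fragments per gene, 1 table per library. Per the file headers they were counted with featureCounts 2.0.1 on GENCODE vM12 (mm10) by gene name, as pairs, with multi-mapping reads counted at each alignment and no strand option. The submitters' processing notes also name STAR 2.7.10b and Subread. Counting without strand adds reads of overlapping genes, and a gene counts as uncertain here where the overlap with another gene covers 10% or more of its exon bases. The tables had 0 rows without a gene name. Groups came from the labels, and no library was left out of the main fits. Where the labels do not say that samples came from separate litters or cages, p-values measure only the spread between these samples.

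Genes were kept with filterByExpr (minimum count 10), which left 18063 genes and all 10 described here, whose counts ran from 171 to 3805 per library. Libraries were scaled with TMM and fitted together with a mean per group (edgeR 4.0.16, R 4.3.3, glmQLFit with robust estimation and glmQLFTest), after the procedure was tested on simulated counts. Adjusted p-values are Benjamini-Hochberg values over every gene tested, and a gene is called below 0.05. CPM are TMM-scaled, and CPM per kb also divide by exon length. Correlations used log2 CPM (prior count 2) less the group mean, with 100000 two-sided permutations within groups. The permutations did not keep control sets or digit subsets apart. No 2 libraries agreed within sampling noise (lowest chi-square per degree of freedom 2.53).

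Promoter sequences are RefSeq's (GRCm38.p6). The named genes are the 10, Per2, every called gene of the 3 pathway lists, and the 5 genes with the highest r to Hdc and to Slc6a3 over genes averaging 1 CPM or more; others are said to be chosen after their values were seen, except marker genes of the fixed lists. The lists covered further histamine, dopamine and cofactor genes and markers of histamine, midbrain dopamine, serotonin and noradrenaline neurons, mast cells, astrocytes, striatum, hypothalamus and thalamus. One gene of the dopamine list is not reported here and was left out of its counts. The 10 genes, the lists and the tests were chosen with earlier results of these data known. Alternatives were other scalings, no filter, DESeq2 1.42.0, a replicate block, only the groups compared, each library left out, control replicates 1 to 5 or 6 to 10 alone, the S662D libraries with or without the additional digit, and the digit as a term. Between S662D and other groups, that term leaves the libraries without the digit as the S662D level.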

Additional observations from a re-analysis of the deposited data

Results flagged for a closer look

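In 3 of 50 combinations of gene and group, 1 library stood further from the others than Dixon's 95% limit allows, where chance flags about 1 in 20. Fed S662D replicate 1 held 109 CPM of Slc6a3 (next highest 38.2 CPM) and 60.9 CPM of Slc18a2 (next highest 30.5 CPM). Fed control replicate 1 held 24.7 CPM of Hdc, with the next at 21.5 CPM.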

How the results depend on the processing

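For the log2 fold changes of the 10 genes in 8 comparisons, 2060 alternative values were computed, of which 2013 kept their side of the threshold, 20 lost a call and 27 gained one. None reversed where either value was called, while 101 changed sign between values that were called in neither. The number of the 10 genes called on fasting in controls (1 in the main analysis) became 0 with no filter on low counts, with the replicate block, with only the groups compared, and with either 5 control replicates alone (1 to 5 or 6 to 10), and ran from 0 to 1 on leaving out single libraries. For Hrh1 in that comparison the value without the filter was -0.17 (adjusted p = 0.0863) and with the replicate block -0.17 (adjusted p = 0.0514), in a range of adjusted p (edgeR, and DESeq2 as one alternative) from 0.0219 to 0.239 over its 28 alternatives. On fasting in S662D mice the count (1) became 0 without and 4 with the additional digit (Th, Ddc, Slc6a3 and Slc18a2, where 3.71% of all genes were called), and 1 to 5 on leaving out single libraries. The 5 were reached without fed S662D replicate 1, where 3.1% of all genes were called. For S662D against control, the fed count (0) became 6 with the digit (Hdc, Th, Ddc, Slc6a3, Slc18a2 and Maob, where 16.9% of all genes were called against 4.69% with every library) and 1 (Hrh3) with the digit as a term, and 0 to 4 on leaving out single libraries. The 4 were reached without fed S662D replicate 1, where 9.15% of all genes were called. The fasted count (0) became 1 with library size only (Hrh3), 1 with the replicate block (Hrh2, 0.29, adjusted p = 0.0305), 1 without (Hrh3) and 1 with the digit (Hrh2), and 1 with the digit as a term (Hrh3). For labelled knockout against S662D the count (1) became 0 with no filter (Hrh3, adjusted p = 0.0513) and 0 with the digit. Between control replicates 6 to 10 and 1 to 5 it (0) became 1 with DESeq2 (Slc18a2). The cause was not tested. Replicate numbers did not pair the libraries, since same-numbered fed and fasted controls had a median correlation of -0.0328 and 1 of 10 pairs exceeded 0.1. In S662D mice 4 of 5 fed and fasted pairs exceeded 0.1 (median 0.123), where the number also carries the digit across feeding states, and 3 of 5 did between fed control and fed S662D libraries (median 0.154). No 2 groups had every pair above 0.1. The block changed no other call. Scaling by library size only moved no median of all genes by more than -0.0389, but took the share of called genes that were higher from 60.1% to 25.3% in fasted S662D against control, from 68.5% to 44.4% on fasting in S662D, and from 35.6% to 50.1% in labelled knockout against S662D.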
